A study of Mus musculus with 9 samples.

Results

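The genes described here are 8 cell death genes that have been linked to E2F transcription factors: Apaf1, Casp9, Casp8, Bid, Bcl2l11, Bmf, Hrk and Trp73. They were fixed by name, with earlier results of these data known, and were read from the array probe set that carries the symbol alone. Each of the 8 had exactly 1 such probe set, and they stand among 19938 genes measured. The series compared mouse embryonic fibroblasts of 3 genotypes at the retinoblastoma gene. The ΔG cells (genotype Rb ∆G/∆G) are homozygous for an allele mutated at the site through which the retinoblastoma protein contacts most E2Fs, the null cells (Rb -/-) lack the gene's function, and the WT cells (Rb +/+) carry the normal gene. All 3 groups were serum deprived: cells were plated at low density in 15 cm dishes and moved after 24 h to medium with 0.1% serum, in which normal fibroblasts stop dividing. Each group holds 3 arrays, and age of the embryos, strain and the part of the gene removed in the null allele are not given in the labels.

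E2F factors, held in check by the retinoblastoma protein, switch on genes for DNA replication, and E2F1 in particular is also known to switch on genes that kill the cell. In the mitochondrial route, BH3-only proteins such as Bid, Bim, Bmf and Hrk free or activate the pore formers Bax and Bak, cytochrome c leaves the mitochondria, Apaf1 assembles with it into the apoptosome, and the apoptosome activates caspase-9. In the death receptor route, caspase-8 is activated at the plasma membrane and cuts Bid, which joins both routes. Trp73, which encodes the p53 relative p73, is the best known link from E2F1 to death that does not need p53.

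To show what stands in front of these genes, the RefSeq promoter table (build GRCm38.p6, windows of 300 bases, 250 before and 50 after a start) was searched for 4 forms of the E2F motif, TTTCCCGC, TTTGGCGC, TTTCGCGC and TTTGCCGC, on both strands. None of the 12 windows of the 8 genes held an 8-letter form, against 2.26% of all 32851 windows. With so low a share, a count of 0 in 12 windows is no result about these genes. Among 14 windows of 13 replication genes known as E2F targets, 6 did. Among 44 windows of 35 other apoptosis pathway genes, 4 did. The first T of each form was then dropped, which leaves 7 letters that every 8-letter match also contains. With these, 1 of the 12 windows (8.33%) held a match, near the 9.57% of all windows. Of the replication windows 11 of 14 did, and of the other apoptosis windows 10 of 44. The member window with a match is the outer of the 2 Trp73 starts in the table, with 3 matches beginning 250, 237 and 103 bases before the start. A match is a run of letters and not a shown binding site, and the windows do not reach more distant elements. The 250 bases before the start are printed below for Casp8 and Bid, the genes whose signal passed the test in null cells, for the outer start of Trp73, and for Mcm6, a helicase gene of the replication list. Mcm6 is not typical of that list, since its window holds 3 matches to the 8-letter forms and only 6 of the 14 windows hold any. Capitals mark the 7-letter forms, and in Mcm6 each capital run holds a pair of overlapping matches on opposite strands.
Casp8, GRCm38.p6 chr1:58802252-58802501, plus strand: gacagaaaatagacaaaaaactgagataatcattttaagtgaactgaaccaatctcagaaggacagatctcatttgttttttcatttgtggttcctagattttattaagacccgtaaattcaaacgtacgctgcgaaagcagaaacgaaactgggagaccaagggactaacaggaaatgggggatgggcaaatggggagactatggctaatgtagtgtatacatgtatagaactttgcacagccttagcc
Bid, GRCm38.p6 chr6:120916825-120917074, minus strand: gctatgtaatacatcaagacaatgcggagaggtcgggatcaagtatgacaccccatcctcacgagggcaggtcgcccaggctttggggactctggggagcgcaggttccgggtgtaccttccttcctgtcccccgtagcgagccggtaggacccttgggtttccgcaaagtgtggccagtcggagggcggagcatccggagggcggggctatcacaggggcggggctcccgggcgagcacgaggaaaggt
Trp73, outer start, GRCm38.p6 chr4:154139876-154140125, minus strand: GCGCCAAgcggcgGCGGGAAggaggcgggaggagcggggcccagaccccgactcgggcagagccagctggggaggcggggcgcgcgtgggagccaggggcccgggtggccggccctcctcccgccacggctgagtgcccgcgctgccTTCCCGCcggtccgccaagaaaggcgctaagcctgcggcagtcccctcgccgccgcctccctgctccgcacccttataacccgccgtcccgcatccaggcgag
Mcm6, GRCm38.p6 chr1:128359706-128359955, minus strand: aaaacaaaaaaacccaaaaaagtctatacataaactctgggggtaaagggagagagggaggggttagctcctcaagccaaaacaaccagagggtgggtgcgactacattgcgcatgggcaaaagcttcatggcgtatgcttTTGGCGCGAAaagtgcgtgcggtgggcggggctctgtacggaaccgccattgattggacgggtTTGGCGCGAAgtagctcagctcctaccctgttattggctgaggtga

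Signals are the authors' log2 RMA values, in which a difference of 1 is a 2-fold difference, and the number of arrays limits their precision. Array medians lay between 6.33 and 6.40. The mean of 10 fibroblast markers was 11.4 to 11.6 on ΔG arrays, 10.9 to 11.1 on null arrays and 11.5 to 11.9 on WT arrays, and 8 of the 10 fell in null against WT. The mean of 16 macrophage and leukocyte markers was 5.86 to 7.30 in ΔG, 5.62 to 6.03 in null and 5.47 to 6.62 in WT. None of the 16 was called in any comparison by limma. At an unadjusted p under 0.05 there were 3 between ΔG and WT, 0 between null and WT and 8 between ΔG and null. Over all 19938 genes these unadjusted counts were 2343, 5989 and 4606. Rb1 itself averaged 9.61 ± 0.13 in ΔG, 8.31 ± 0.23 in null and 9.08 ± 0.13 in WT (SD, n = 3 each). On the first principal component, which held 51.8% of the variance, ΔG replicate 3 lay at −0.30, between the other ΔG arrays (−13.9 and −11.5) and the null arrays (24.2 to 27.4), with WT arrays at −21.3 to −14.7. Xist and the Y-linked gene Eif2s3y show that all 3 ΔG arrays and WT replicates 1 and 2 came from male cells and all 3 null arrays and WT replicate 3 from female cells, with Xist at 4.24 to 4.30 in ΔG, 11.5 to 12.0 in null and 4.31, 4.45 and 11.4 in WT. Genotype and sex therefore cannot be told apart between ΔG and null. The submitters describe the cultures of the genotypes as littermates, but no label ties an array to a litter, and the fit holds no pairing. Whether the 3 cultures of a genotype stem from separate embryos is not given. In WT the presence of both sexes shows more than 1 embryo, so the scatter there includes differences of embryo and sex. The p-values describe the scatter of these arrays, which may in part be technical.

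Among the 8 genes, Casp8 and Bid rose in null cells, each by less than 1.3-fold, and the other 6 did not pass the test in any comparison. No member was called in ΔG against WT. The test was limma's moderated test across all 19938 genes with Benjamini-Hochberg adjustment at 0.05, and p-values below are adjusted this way unless called unadjusted. In null minus WT, 2 of 8 members rose and none fell, where 8.38% of all genes rose, 10.1% fell and 18.4% were called in all. The median log2 change of the members there was 0.15, against −0.010 over all genes. In ΔG minus WT the call count was 0 of 8, where 0.813% of all genes were called, 0.602% higher and 0.211% lower. With so low a background, a count of 0 among 8 genes is no result about them. An unadjusted p under 0.05 was found there for 1 member, Casp8, and for 2343 of the 19938 genes. In ΔG minus null the call count was also 0 of 8, where 8.71% of all genes were called, 4.44% higher and 4.27% lower in ΔG. An unadjusted p under 0.05 was found there for 1 member, Bid, and for 4606 of the 19938 genes. Both comparisons against WT use the same WT arrays.

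**Figure D1:**
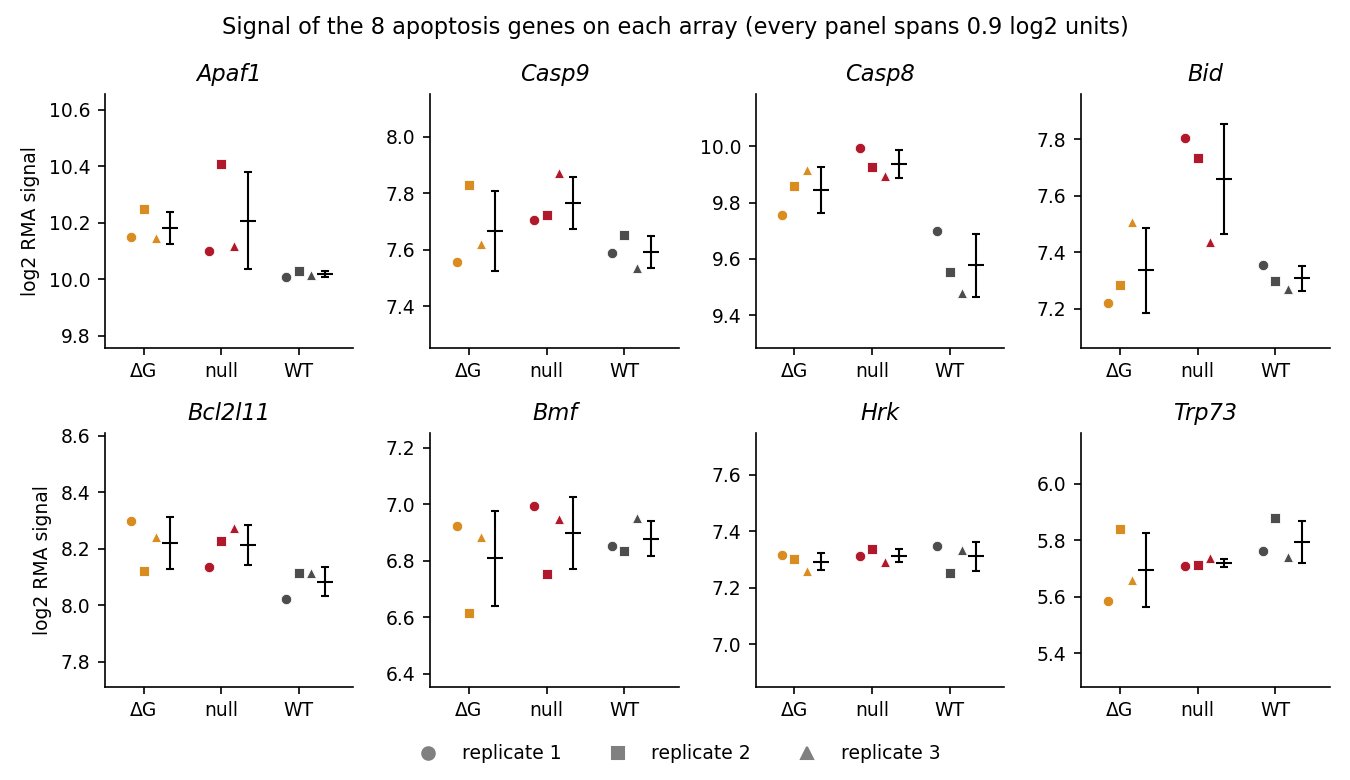
Log2 RMA signal (vertical axes) of each of the 8 genes on every ΔG, null and WT array, with marker shape giving the replicate and black bars the mean ± SD of 3 arrays. Casp8 and Bid lie above all WT arrays on every null array, while Hrk lies between 7.25 and 7.35 throughout. Every panel spans 0.9 log2 units, so spreads can be compared by eye.

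Caspase-8, the initiator caspase of death receptors, gave the firmest change. Casp8 had signals of 9.76, 9.86 and 9.92 on the ΔG arrays, 9.99, 9.93 and 9.89 on the null arrays and 9.70, 9.55 and 9.48 on the WT arrays. All ΔG and all null arrays lay above all WT arrays, while ΔG and null arrays overlapped. In null cells Casp8 rose 1.28-fold against WT (log2 change 0.36, SE 0.079, 95% interval 0.19 to 0.53, adjusted p = 0.00838). It was called in all 16 alternative settings tried, with adjusted p-values of 0.00727 to 0.0407 and log2 changes of 0.31 to 0.46. In ΔG cells its log2 change was 0.27 (SE 0.079, 95% interval 0.093 to 0.44), which did not pass over all genes (unadjusted p = 0.00593, adjusted p = 0.184 in limma). The difference between ΔG and null was −0.09 (95% interval −0.27 to 0.08, adjusted p = 0.534). So the fit separated Casp8 in null from WT, while ΔG was separated from neither.

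Bid, the BH3-only protein that caspase-8 cuts, rose in null cells and lay near the WT level in ΔG cells. Its signals were 7.22, 7.28 and 7.51 on the ΔG arrays, 7.80, 7.73 and 7.44 on the null arrays and 7.36, 7.30 and 7.27 on the WT arrays. Every null array lay above every WT array, but the lowest null array, replicate 3, lay below ΔG replicate 3. In null minus WT the change was 1.28-fold (log2 change 0.35, SE 0.105, 95% interval 0.12 to 0.58, adjusted p = 0.0385). This call was lost in 9 of 16 alternative settings, among them the omission of WT replicate 1, 2 or 3 (adjusted p = 0.0678, 0.0996 and 0.0972), of null replicate 1 or 2 (0.152 and 0.116, log2 changes 0.28 and 0.31) or of ΔG replicate 2 (0.0511), a fit with the replicate number as a block (0.0601), a fit with Y-linked genes as a covariate (0.212) and the use of WT replicate 3 as the only WT array (0.187). In ΔG minus WT the log2 change was 0.03 (95% interval −0.20 to 0.26, adjusted p = 0.959). In ΔG minus null it was −0.32 (95% interval −0.55 to −0.09, an interval for this gene alone, unadjusted p = 0.0104, adjusted p = 0.084). That difference passed without ΔG replicate 3 (log2 change −0.41, adjusted p = 0.03) and without null replicate 3 (log2 change −0.43, adjusted p = 0.028). These are the arrays on which ΔG and null overlap, so leaving them out widens the difference. It did not pass in the other 13 of 15 alternative settings. Among these were the omission of ΔG replicate 1 or 2 (adjusted p = 0.274 and 0.222) and of null replicate 1 or 2 (0.275 and 0.203).

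Sex and other cell types bear on these differences as follows. Against WT replicate 3, the WT array with the sex of the null arrays, the log2 change in null was 0.46 for Casp8 (adjusted p = 0.03) and 0.39 for Bid (adjusted p = 0.187), beside 0.36 and 0.35 against all WT arrays. In that comparison the lone WT array was taken to vary like the other groups. Against the male WT arrays alone, the Casp8 log2 change in ΔG was 0.22 (adjusted p = 0.384). Macrophage and leukocyte markers had a median log2 change of −0.20 in null and 0.56 in ΔG against WT. The 10 fibroblast markers had a median log2 change of −0.59 in null, with 8 lower, and of −0.08 in ΔG, with none called by limma and 0 at an unadjusted p under 0.05. The mean of 6 epithelial markers was 5.76 to 5.93 in ΔG, 6.05 to 6.19 in null and 5.80 to 5.85 in WT. Of these 6, the keratin gene Krt19, named after its value was seen, rose in null (log2 change 1.48, adjusted p = 0.00126), and the median of the list there was 0.05. The mean of 5 endothelial markers was 5.57 to 5.66 in ΔG, 5.50 to 5.78 in null and 5.63 to 5.83 in WT. Of them 1, Emcn, likewise named afterwards, fell in null (log2 change −0.81, adjusted p = 0.0494), where 18.4% of all genes were called. The median log2 change of the 5 there was −0.07, with 2 above 0 and 3 below. None of 5 neural markers was called in null by limma, and 1 had an unadjusted p under 0.05. The part of any of these cell types in the Casp8 and Bid values was not tested. In cultures that mix cells, more cells of a type and more RNA per cell cannot be told apart.

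The mean signals of the apoptosome genes lay slightly above WT in both mutants without passing, and Casp9 in ΔG overlapped WT. Apaf1, the scaffold of the apoptosome, had signals of 10.15, 10.25 and 10.15 in ΔG, 10.10, 10.41 and 10.12 in null and 10.01, 10.03 and 10.01 in WT. All ΔG and null arrays lay above all WT arrays, and null replicate 2 stood above the rest. Its log2 change was 0.16 in ΔG (95% interval −0.027 to 0.35, adjusted p = 0.51) and 0.19 in null (95% interval −0.0004 to 0.38, adjusted p = 0.168). Without null replicate 2 the null change was 0.09. Casp9, the caspase that the apoptosome activates, had 7.56, 7.83 and 7.62 in ΔG, 7.70, 7.72 and 7.87 in null and 7.59, 7.65 and 7.53 in WT. The null arrays lay above the WT arrays, while ΔG replicates 1 and 3 lay within the WT range and replicate 2 above it. Its log2 change was 0.08 in ΔG (95% interval −0.11 to 0.27) and 0.18 in null (95% interval −0.014 to 0.36, adjusted p = 0.202).

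The remaining BH3-only genes showed smaller differences. Bcl2l11, which encodes Bim, a killer of cells deprived of growth factors, had signals of 8.30, 8.12 and 8.24 in ΔG, 8.14, 8.23 and 8.27 in null and 8.02, 8.11 and 8.11 in WT. The ΔG and null arrays lay above the WT arrays, in ΔG replicate 2 by less than 0.01. Its log2 change was 0.14 in ΔG (95% interval −0.026 to 0.30, adjusted p = 0.522) and 0.13 in null (95% interval −0.035 to 0.29, adjusted p = 0.286). Bmf, a BH3-only protein tied to the cytoskeleton, had 6.92, 6.61 and 6.89 in ΔG, 6.99, 6.75 and 6.95 in null and 6.85, 6.83 and 6.95 in WT. The 3 groups overlapped, and replicate 2 was the lowest array in each. Hrk, a BH3-only gene best known from neurons, had 7.32, 7.30 and 7.26 in ΔG, 7.31, 7.34 and 7.29 in null and 7.35, 7.25 and 7.33 in WT. Its signal was the steadiest of the 8 genes, with log2 changes of −0.02 in ΔG (95% interval −0.16 to 0.12) and 0.0027 in null (95% interval −0.14 to 0.14). Without detection calls it is not known whether the Hrk probe set measures Hrk RNA or the array's background. The same limit applies to Bmf, whose signals were lower, and to Bid, whose WT mean of 7.31 equals that of Hrk at this rounding.

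Trp73 gave no rise in either mutant. Its signals were 5.59, 5.84 and 5.66 in ΔG, 5.71, 5.71 and 5.74 in null and 5.76, 5.88 and 5.74 in WT. The null arrays lay just below the WT arrays, the highest null at 5.738 and the lowest WT at 5.742, and the ΔG arrays spread across both. The log2 change was −0.10 in ΔG (95% interval −0.27 to 0.08, adjusted p = 0.705) and −0.07 in null (95% interval −0.25 to 0.10, adjusted p = 0.605). The upper end of the null interval is a 1.07-fold rise. No detection calls were used, so it is not known whether this probe set measures Trp73 RNA or the array's background, and it does not separate transcripts of the outer start from those of the inner one.

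**Figure D2:**
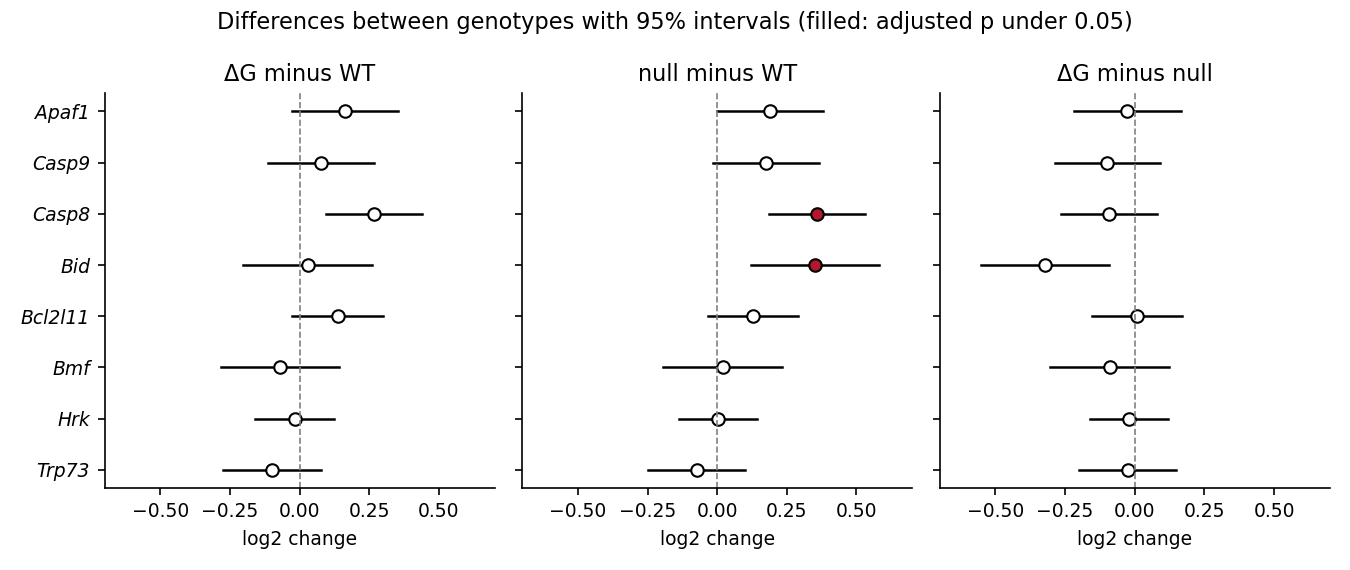
Log2 change (horizontal axis) of each gene in the 3 comparisons (ΔG minus WT at the left, ΔG minus null at the right), with 95% intervals from the limma fit that are not adjusted for the number of genes. Only Casp8 and Bid in null minus WT passed the adjusted threshold, and the Bid interval in ΔG minus null lies below 0 without passing it.

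Counted by array, more members lay above WT than below it in null cells. In null minus WT the groups did not overlap for 6 of 8 members, 5 with all null arrays above WT and 1, Trp73, below, where 34.7% of all genes did not overlap. In ΔG minus WT 3 of 8 did not overlap, Apaf1, Casp8 and Bcl2l11, all higher in ΔG, where 16.5% of all genes did not overlap. No member separated ΔG from null, where 27% of all genes did. These shares of all genes count both directions, so they give no background for the split into above and below. The sizes were small throughout. The highest upper end of a 95% interval among the 6 members not called in null was 0.38, a 1.30-fold rise, and among all 8 it was 0.58, for Bid.

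The members had smaller median changes than replication genes known as E2F targets on the same arrays. The median log2 change of the 8 members was 0.05 in ΔG, against 1.06 for 14 replication genes, of which 12 rose. In null cells it was 0.15, against 1.56 for the 14, all of which rose. The largest log2 change of a member in null was 0.36, in Casp8, and the smallest among the 14 was 0.85, in the licensing factor gene Cdc6 (95% interval 0.53 to 1.17), whose interval overlaps that of Bid (0.12 to 0.58) at its lower end. In ΔG the order was not so clear, since Casp8 at 0.27 lay above Cdc6 at 0.17. Between the mutants the member median was −0.06, against −0.60 for the 14, of which 11 were lower in ΔG than in null. Over all genes 0.813% were called in ΔG minus WT, 18.4% in null minus WT and 8.71% in ΔG minus null. The replication genes, like the members, were chosen with earlier results of these data known. These lists were set side by side as a description, and no test of one list against the other was made.

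**Figure D3:**
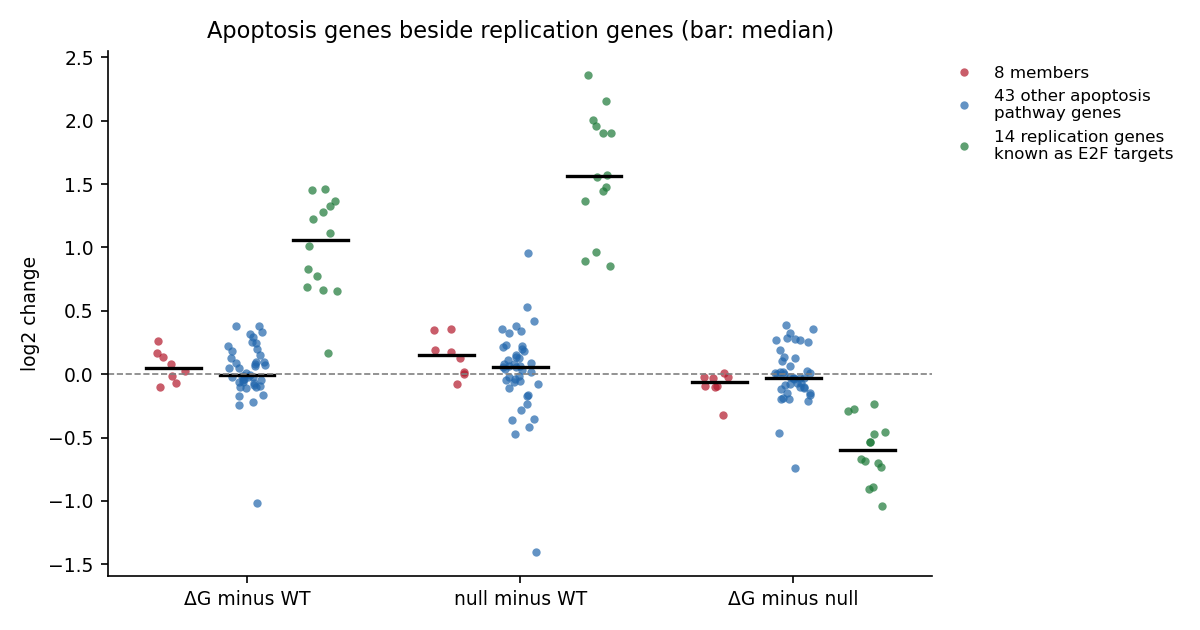
Log2 change (vertical axis) of the 8 genes, of 43 other apoptosis pathway genes and of 14 replication genes in each comparison, 1 point per gene, with a bar at each median. The 8 genes stay between −0.32 and 0.36 in all comparisons, while the replication genes reach 1.46 in ΔG and 2.36 in null.

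The members did not follow one pattern over the 9 arrays. Among the 28 pairs of members the highest Pearson correlation was 0.71, between Casp8 and Bid, and the lowest −0.66, between Bcl2l11 and Trp73, values that in part restate the genotype differences since the arrays share them. The genes whose values ran most like Casp8 were Nup155 and Nsg1 (r = 0.979 and 0.977 over 9 arrays), and those most like Bid were Nrarp and Ccdc124 (0.983 and 0.978). For Apaf1 they were Cdx4 and Gne (0.983 and 0.980), for Bcl2l11 Phtf1os and Crlf3 (0.893 and 0.891), and for Bmf Kansl1l and Phf7 (0.976 and 0.906). For Casp9, Hrk and Trp73 the nearest genes included receptors of smell and pheromones: Mycl and Olfr1057 for Casp9 (0.966 and 0.945), Shoc2 and Olfr1229 for Hrk (0.944 and 0.905), and Vmn1r89 and Vmn1r24 for Trp73 (0.939 and 0.916). These are the 2 highest correlations of each member once predicted genes, clone names and small RNAs were left out of the 19938 genes, and they are given without a test.

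The rest of the apoptosis machinery was read from a list of 48 genes, of which 43 had a probe set of their own symbol, and the other 5 were not analysed here. In null minus WT 5 of the 43 rose and 5 fell, beside the 18.4% of all genes called, with a median log2 change of 0.06. In ΔG minus WT 1 fell and none rose, beside 0.813% of all genes called, with a median of −0.0053. There 9 of the 43 had an unadjusted p under 0.05, as did 2343 of all 19938 genes. In ΔG minus null 2 were higher and 2 lower, 9.3% of the 43, near the 8.71% of all genes called. Of 10 measured caspases, mitochondrial factors and caspase substrates, Casp2 and Parp1 rose in null and Dffa fell. Casp2, a caspase activated by DNA damage and failed division, had signals of 8.44, 8.48 and 8.65 in ΔG, 8.72, 8.73 and 8.76 in null and 8.31, 8.12 and 8.19 in WT. The 3 groups did not overlap and ΔG lay between the other two. It rose 1.44-fold in null (log2 change 0.53, SE 0.079, adjusted p = 0.000979), and its log2 change in ΔG was 0.32 (adjusted p = 0.11). Parp1, a DNA repair enzyme that caspases cut, rose by 0.34 on the log2 scale (adjusted p = 0.00381), and Dffa, the inhibitor of the caspase-activated nuclease, fell by 0.28 on the log2 scale (adjusted p = 0.0223). The Dffa call was lost without WT replicate 1 or null replicate 2 or 3 (adjusted p = 0.0905, 0.0566 and 0.071).

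Among inhibitors and survival genes changes ran both ways in null cells. Of 6 caspase inhibitors Birc5, which encodes survivin, a protein of dividing cells, rose 1.94-fold (log2 change 0.96, SE 0.17, adjusted p = 0.00288), and Birc2, the inhibitor cIAP1, fell by 0.36 on the log2 scale (adjusted p = 0.0202). The Birc2 value was −0.17 when its probe sets were averaged (adjusted p = 0.148), and the call was lost without WT replicate 3 or null replicate 2 or 3 (adjusted p = 0.0688, 0.0764 and 0.0587). Birc5 had signals of 6.42, 6.50 and 7.14 in ΔG, 7.53, 7.35 and 7.37 in null and 6.72, 6.40 and 6.27 in WT. It was thus high on ΔG replicate 3 alone within its group, the array that lies nearest to null on the first component, and its log2 change in ΔG was 0.22 (adjusted p = 0.697). Of 5 survival members of the BCL2 family, Bcl2l1, which encodes Bcl-xL, rose 1.33-fold in null (log2 change 0.42, adjusted p = 0.0153) and Bcl2l2, which encodes Bcl-w, fell by 0.36 on the log2 scale (adjusted p = 0.0217). The Bcl2l2 call was lost without WT replicate 2 or 3 or null replicate 1 or 3 (adjusted p = 0.065, 0.0763, 0.0923 and 0.0511). With Y-linked genes as a covariate or against WT replicate 3 alone, Bcl2l1, Parp1 and Dffa were no longer called in null. The log2 changes under these 2 settings were 0.41 and 0.40 for Bcl2l1 (adjusted p = 0.155 and 0.167), 0.32 and 0.33 for Parp1 (adjusted p = 0.0749 and 0.0762) and −0.19 in both for Dffa (adjusted p = 0.335 and 0.306). Neither of the 2 measured pore formers was called by limma, with 1 at an unadjusted p under 0.05 in ΔG minus WT, 0 in null minus WT and 1 in ΔG minus null. That one is Bok, which had a log2 change of 0.33 in ΔG (adjusted p = 0.137) and 0.06 in null.

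Receptors gave the only call in ΔG. Tnfrsf21, which encodes death receptor 6, had signals of 8.15, 8.07 and 8.54 in ΔG, 7.91, 7.81 and 7.88 in null and 9.36, 9.35 and 9.09 in WT. Both mutants lay below all WT arrays, null lowest. It was 2.02-fold lower in ΔG (log2 change −1.01, SE 0.12, adjusted p = 0.00263) and 2.64-fold lower in null (log2 change −1.40, SE 0.12, adjusted p = 2.7e-05), and it kept both calls in all 16 alternative settings. Of the 8 measured genes of the death receptor route only Tnfrsf10b, a receptor of the ligand TRAIL, was called besides it, 1.30-fold higher in null (log2 change 0.38, adjusted p = 0.0414). That call was lost on leaving out any one WT array (adjusted p = 0.0536, 0.0503 and 0.14), ΔG replicate 2 (0.0515) or null replicate 1 or 2 (0.072 and 0.143). In ΔG its log2 change was also 0.38 (adjusted p = 0.199). Among the 6 other BH3-only genes Bnip3, a gene induced by low oxygen, was lower in ΔG than in null (log2 change −0.47, adjusted p = 0.014), while neither mutant passed against WT (log2 changes −0.25 in ΔG and 0.22 in null). Of 6 p53 family genes and cofactors Ppp1r13b, which encodes the p53 cofactor ASPP1, fell by 0.42 on the log2 scale in null (SE 0.083, adjusted p = 0.0051) and was higher in ΔG than in null (log2 change 0.33, adjusted p = 0.0316). In ΔG minus null the remaining calls were Birc5 (log2 change −0.74, adjusted p = 0.0227) and Dffa (log2 change 0.27, adjusted p = 0.0486). All 4 calls between ΔG and null were lost on leaving out null replicate 1 or ΔG replicate 2, and they cannot be told apart from sex.

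**Figure D4:**
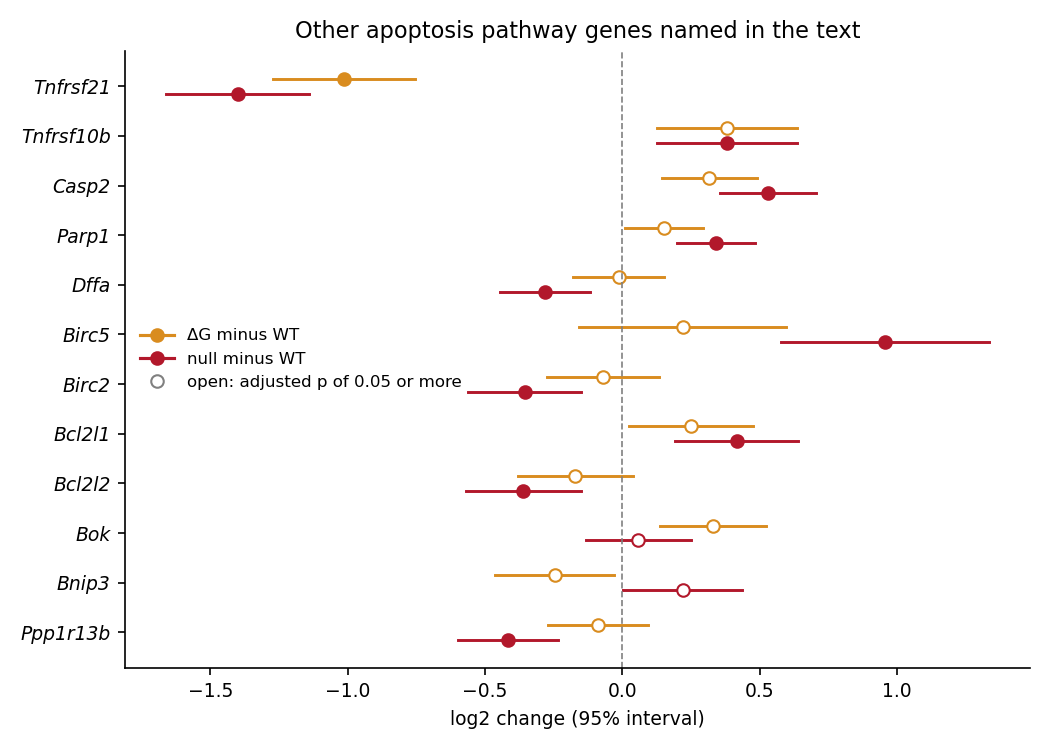
Log2 change (horizontal axis) with 95% intervals of the 12 other pathway genes named in the text, for ΔG minus WT and null minus WT, with open points at an adjusted p of 0.05 or more. Tnfrsf21 lies near −1.0 in ΔG and −1.4 in null, Birc5 near 0.96 in null, and the others within 0.53 of 0.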

How the data were processed

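RNA from 9 fibroblast cultures was measured on Affymetrix Mouse Gene 1.0 ST arrays, 3 per genotype. The authors deposited log2 RMA values, made with BRB-ArrayTools per the series text, with software versions not given in the sources used here. A platform annotation gave exactly 1 symbol to 21789 of 35512 probe sets, and the brightest probe set stood for a gene, leaving 19938. A single linear model with 1 mean per genotype was fitted to the 9 arrays in limma 3.58.1 under R 4.3.3, leaving 6 residual degrees of freedom, and p-values of a comparison were adjusted over all genes by Benjamini-Hochberg with a threshold of 0.05. The fit was tested on simulated data. Members and lists were chosen with earlier results of these data known. Named genes are the members, every pathway gene called in a comparison with the 3 of lowest p, and for each member the 2 genes of highest correlation, leaving out predicted genes, clone names and small RNAs. Alternatives were median centring, a dim gene filter, averaged probe sets, an intensity trend, a replicate block, 2 treatments of sex and omission of each array. No genome was used, and sequences are RefSeq's.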

Additional observations from a re-analysis of the deposited data

How the results depend on the processing

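The Casp8 call in null minus WT and the absence of member calls in ΔG minus WT held under all 16 alternatives. The Bid call in null minus WT was the only member call lost: with the replicate block (log2 change 0.35, adjusted p = 0.0601), with Y-linked genes as a covariate (0.37, adjusted p = 0.212), against the WT array of the same sex (0.39, adjusted p = 0.187) and without 6 single arrays. Members called in null minus WT were therefore 1 under each of those 3 settings, and 1 to 2 when single arrays were left out, against 0 to 1 in ΔG minus null. Same-numbered arrays had correlations of deviations of −0.084 to 0.269, and differently numbered arrays of −0.241 to 0.137. These values do not settle whether the replicate numbers mark litters. No label names pairs, so the numbers were not taken as pairs in the main fit. With the replicate block 211 genes were called in either direction in ΔG minus WT, 3777 in null minus WT and 1977 in ΔG minus null. Without the block the counts were 162, 3678 and 1737. The Y-linked covariate left 1580 calls in null minus WT and 53 in ΔG minus null, with 0 of the 43 pathway genes in the second, and the WT array of the same sex left 1782 in null minus WT; in these fits sex and genotype overlap, or fewer arrays remain. With single arrays omitted the calls over all genes were 62 to 252 in ΔG minus WT, 2546 to 3895 in null minus WT and 762 to 2408 in ΔG minus null, and pathway calls in ΔG minus null were 0 to 4 (0 without ΔG replicate 2 or null replicate 1). In ΔG minus WT the lowest counts were 62 without WT replicate 2, 70 without ΔG replicate 2 and 83 without ΔG replicate 1, and the highest 252 without ΔG replicate 3.

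Log2 changes that turned sign were all of uncalled members close to 0. Bmf in null minus WT turned to −0.0695 with the Y-linked covariate and −0.0524 against the WT array of the same sex, and in ΔG minus null to 0.0399 with the covariate. Hrk in null minus WT turned to −0.0158 with median centring, −0.0229 with the covariate and −0.0201 against the same-sex array, and in ΔG minus null to 0.0165 with the covariate. On omission of single arrays in null minus WT, Bmf ran over −0.0279 to 0.0924 and Hrk over −0.027 to 0.021. In ΔG minus WT, Bid ran over −0.0564 to 0.0866, Bmf over −0.128 to 0.0262, Casp9 over −0.0035 to 0.132 and Hrk over −0.0478 to 0.0002. In ΔG minus null, Apaf1 ran over −0.0808 to 0.0729, Bcl2l11 over −0.0314 to 0.058, Bmf over −0.163 to 0.0064 and Trp73 over −0.0971 to 0.0302. The causes were not tested.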
